A study of Acrobeloides nanus with 194 samples.

Results

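The transcripts described here are 13 of the 16853 rows in a count table of single cells and small pieces from embryos of the nematode Acrobeloides nanus. They were selected on their measured levels, for a mean that was highest in the latest embryos sampled and that had covered at least 0.5 of its climb by the E stages. The rule used log2(CPM + 50), where CPM is a row's counts scaled to a common library total of 1e+06, averaged over libraries in 4 stage bins. A span of at least 1 between the highest and the lowest bin mean was met by 216 rows, 28 of these were highest in the last bin, and 13 passed the ratio. Nothing in the deposited files ties a row to a contig or a gene. Rows are therefore called by their position in the table, and no gene, protein or sequence is given.

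In nematode embryos the egg starts with maternal RNA, and transcripts of the embryo's own genome take over as cleavage goes on. The founder cells are set up by unequal divisions. AB and its descendants give much of the outer tissues, nervous system and anterior pharynx, MS gives muscle and pharynx, E gives the gut, and the P cells lead to the germline, in which transcription is held back for a time in Caenorhabditis elegans. A transcript that is low in the egg and high after gastrulation is therefore a usual sign of embryonic transcription, but a level scaled to the library total can also change because other transcripts are lost.

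Embryos were taken apart by hand, and each library was made by CEL-Seq2, which tags the 3' ends of transcripts, from a single cell or a small cluster of cells. By the stage in their titles, the libraries of 10000 or more counts fell into 1- to 4-cell embryos (45 libraries), 5- to 16-cell embryos (33), stages E2, E4 and E8 (36), and the titles VE, Comma and LE (32). The sources used here do not spell out VE and LE, and give no strain, treatment or embryo for a library. The stage label disagreed with the title for 13 libraries titled Comma or VE and labelled gastrula, and for 1 titled E4 and labelled stage E2, and the title was used. Of the other 48 libraries, 44 were under 10000 counts and 4 were titled E alone. Totals ran from 10179 to 1217040 counts in the first bin (median 96628), 10393 to 432918 in the 5- to 16-cell bin (31301), 11946 to 143783 in the E-stage bin (27331.5) and 14721 to 262472 in the last (59904.5). A count is worth 100 CPM in a library of 10000 counts and 20 CPM in a library of 50000, and a count of 0 allows a level up to 300 and 60 CPM there (3 counts). Cells and pieces of 1 embryo can be in several libraries, so the p-values below measure the spread between cells and pieces. In a piece of several cells, more cells of a type and more RNA per cell cannot be told apart.

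The values that chose the members are given first, as a description. Row 911 had the largest span, 3.63, with bin means of 7.20, 8.34, 9.59 and 10.83 from the first bin to the last and a ratio of 0.661. Row 1346 followed with a span of 3.36 and a ratio of 0.802, row 16102 with 2.65 and 0.906, and row 1371 with 2.06 and 0.844. Row 6800 had a span of 1.97 and row 12775 of 1.94. The remaining 7 rows, 16177, 16769, 15309, 15271, 16090, 9586 and 1374, had spans of 1.01 to 1.22. Just inside the span threshold stood row 1374 with 1.01, and just outside it row 15725 with 0.996. For the ratio these were row 15309 with 0.527 and row 8212 with 0.464. The first bin was the lowest for 11 members, and the 5- to 16-cell bin for rows 16769 and 15309.

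**Figure D1:**
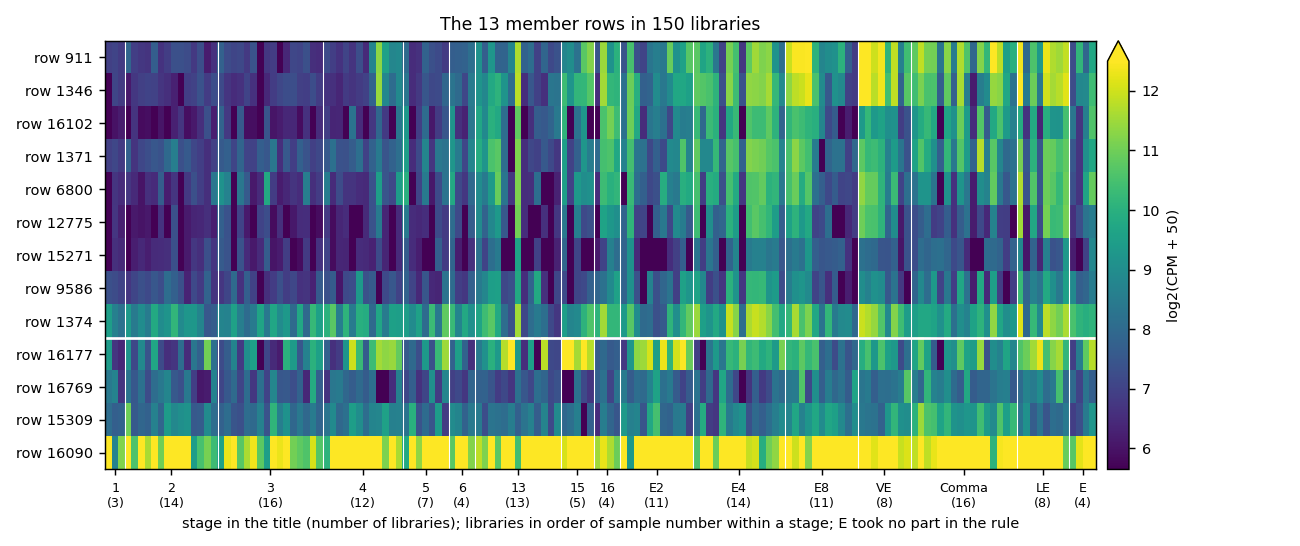
Level of each member, as log2(CPM + 50), in 150 libraries of 10000 or more counts; each column is a library, ordered by stage and then by sample number, and the white line parts 9 rows that vary together from the other 4. The 9 upper rows, apart from row 1374, are mostly dark at the 1- to 3-cell stages. All 9 are bright in some but not all libraries from the 13-cell stage on, and row 16090 is bright in most libraries of every stage.

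A bin mean hides the order of stages within the bin. By stage median, 8 of the 13 members were highest at VE, Comma or LE, 2 at E4, 1 with 16 cells and 2 with 15 cells. Row 16102 had its highest stage median, 1369 CPM, in the 4 libraries of the 16-cell stage. Rows 9586 and 15271 had theirs at E4, with 531.5 and 263.2 CPM. Rows 16177 and 16090 had theirs at the 15-cell stage, with 6024 and 17067 CPM. The E-stage bin stood above the 5- to 16-cell bin in all 13 members, by 0.01 in row 16090 (means of 12.93 and 12.92).

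Within the list, 9 rows varied together and 4 did not. Rows 911, 1346, 16102, 1371, 6800, 12775, 15271, 9586 and 1374 each correlated with row 911 at a Pearson r of 0.5 or more over 150 libraries, a grouping made after the values were seen. Among these 9 rows r ran from 0.512 to 0.910 over 36 pairs (median 0.721). With the mean of each stage taken off, r ran from 0.433 to 0.838 (median 0.661), so libraries of 1 stage that were high in 1 of the rows tended to be high in the others. Rows 16177, 16769, 15309 and 16090 had r of -0.308 to 0.414 with the 9 (median 0.0756) and of -0.0768 to 0.321 among themselves. All r are descriptions over libraries that share depth and stage, and the rule itself favours rows that rise together.

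**Figure D2:**
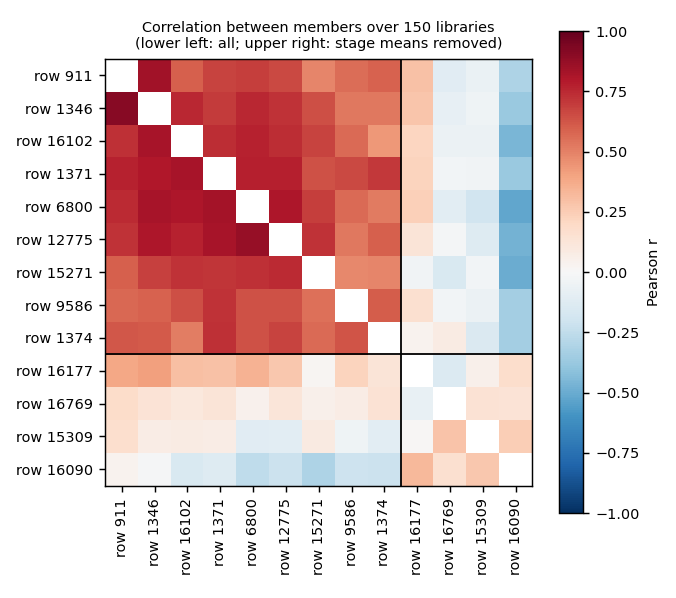
Pearson r between members over 150 libraries of 10000 or more counts, from log2(CPM + 50), with all libraries below the diagonal and with stage means removed above it. The block of 9 rows holds r of 0.512 to 0.910 below the diagonal, and rows 16177, 16769, 15309 and 16090 lie outside it.

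Together the 9 rows took a far larger share of the counts in some late pieces than in the earliest embryos. The rule chose its members for such a rise, so the shares by stage and the counts of libraries above the early range are a description. Their median share of a library's counts was 0.087% with 1 cell (3 libraries), 0.0966% with 2 (14), 0.117% with 3 (16) and 0.180% with 4 (12). It was 0.155% in embryos of 5 cells (7), 0.183% in those of 6 (4), 0.184% with 13 (13), 0.529% with 15 (5) and 0.818% with 16 (4). At E2 (11) it was 0.307%, at E4 (14) 0.910% and at E8 (11) 0.249%. In pieces titled VE (8), Comma (16) and LE (8) it was 1.44%, 0.617% and 1.39%.

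The stage medians therefore did not climb in step. The share was lower at E2 than at the 15- and 16-cell stages, lower at E8 than at E4, and lower at Comma than at VE and LE. The order of E8 and E4 turned with depth: in libraries of 50000 or more counts the medians were 1.62% at E8 (5) and 1.43% at E4 (8), and from 20000 counts they were 1.28% at E8 and 1.35% at E4. No 1- to 3-cell library exceeded 0.204%. Above that value stood 4 of 12 libraries of 4-cell embryos, 2 of 7 with 5 cells, 2 of 4 with 6, 5 of 13 with 13, 4 of 5 with 15 and 3 of 4 with 16 cells. At E2 8 of 11 passed it, at E4 12 of 14 and at E8 8 of 11. All 8 VE libraries, 13 of 16 Comma libraries and 6 of 8 LE libraries did so.

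**Figure D3:**
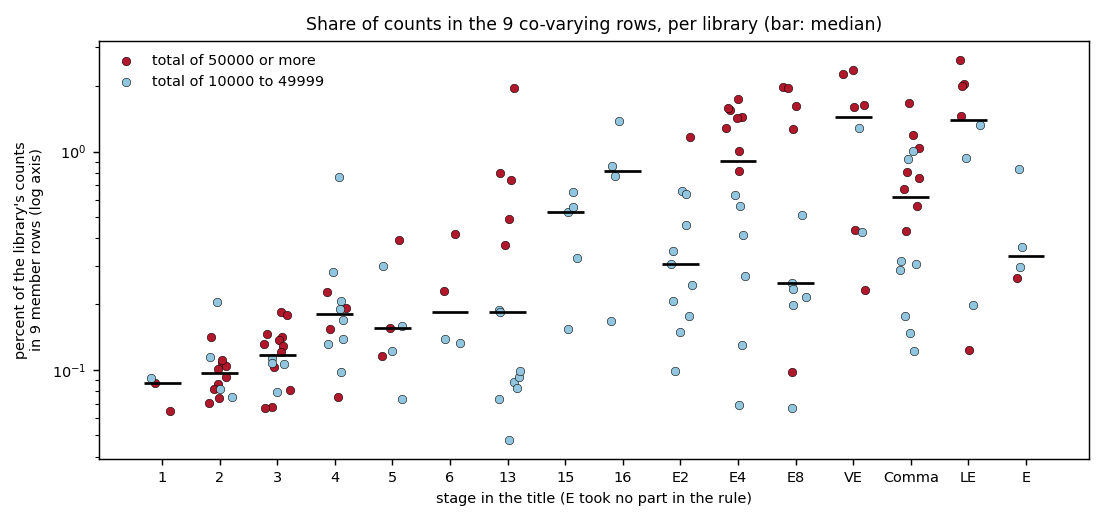
Percent of each library's counts in the 9 co-varying rows, on a log axis, by stage in the title; points are libraries of 10000 or more counts, red from 50000 counts, and bars are medians. The 1- to 3-cell libraries lie between 0.0647% and 0.204%, while E8, VE, Comma and LE each hold libraries above 1% and libraries near the early range. The rows were chosen for a higher mean in the last bin.

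Libraries of the same stage differed widely. At E8, replicate 1 of post_E, post_Abp, ant_Pharynx and ant_epithelia held 1.28%, 1.99%, 1.62% and 1.96% of counts in the 9 rows. The other 7 E8 libraries held 0.0665% to 0.511%. The 4 high libraries have totals of 65313 to 108207 counts and lower sample numbers, the numbers that end their descriptions, than the other 7, which have totals of 11946 to 80771. Pieces of the same title were in both sets: ant_Pharynx replicate 2 held 0.0978% in 80771 counts, and post_Abp replicates 2 and 3 held 0.249% and 0.215%. Among VE pieces ant_pharynx replicates 1, 2 and 3 held 2.36%, 2.27% and 1.28%, but replicate 4, the deepest of the last bin with 262472 counts, held 0.231%.

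Depth moved with the share of the 9 rows. Within stages, the Pearson r of the log2 share with the log2 total was -0.0944 in the first bin, 0.547 in the 5- to 16-cell bin, 0.624 in the E-stage bin and 0.287 in the last. In the E-stage bin the median share was 1.43% in the 14 libraries of 50000 or more counts and 0.247% in the 22 below. At the 13-cell stage the 5 libraries of 50000 or more counts held 0.374% to 1.96%, and the 8 below held 0.0479% to 0.189%. The share of row 16090, the most abundant member, moved the other way within stages, with r of -0.590, -0.698 and -0.471 to the share of the 9 rows in the 5- to 16-cell, E-stage and last bins. The part of depth and of sample number in these levels was not tested.

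Libraries that share a cell name did not share a level, a reading made after the values were seen. Libraries titled AB were the highest of their stage at 5 cells (0.394%), 6 cells (0.418%), 13 cells (AB3, 1.96%), 16 cells (AB replicate 2, 1.38%) and E2 (1.16%). Their totals were 114408, 69306, 103039, 24641 and 140062 counts in that order. Other AB libraries were not high: at 16 cells AB replicate 1 was the lowest of its stage at 0.168%, E2 AB2 with 0.207% lay below the E2 median and E4 AB_ANT with 0.414% below the E4 median. At 13 cells AB and AB2 held 0.493% and 0.374%, less than CDP4 with 0.802% and MS2 with 0.741%. Among other libraries with P4 in their titles, 13-cell P4d, E+P4 and P4 replicate 3 held 0.0479%, 0.0931% and 0.189%, in totals of 22964, 22557 and 22246 counts. The 6-cell DP4 and P4D held 0.133% and 0.229%, on either side of their stage median, 5-cell P4 replicates 2 and 3 held 0.155% and 0.299%, and the 4-cell p4 libraries held 0.190% and 0.170%. E4 P4D held 0.130%, and LE p4 was the lowest of its stage with 0.124%. Most of these names have a single library at their stage, and no test was made.

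Rows 911 and 1346 were the members with the largest span and the closest pair (r 0.910). At the 2-cell stage row 911 had a median of 69.6 CPM, with 22.1 to 185.9 CPM over 14 libraries. At the 4-cell stage its values were 99.5, 51.6 and 431 CPM in AB replicates 4, 3 and 2, and 71.2 CPM in EMS. It had 105.5, 37.3, 49.8 and 376 CPM in P3 replicates 2, 3, 4 and a, 82.8 and 2554 CPM in C replicates 3 and a, and 715 and 391 CPM in the libraries titled p4. Thus 5 of 12 4-cell libraries lay above every 2-cell library and the other 7 lay within the 2-cell range. The mean was 414 ± 707 CPM at the 4-cell stage (SD, n = 12) and 85.6 ± 45.1 CPM at the 2-cell stage (SD, n = 14).

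Between these stages row 911 was called higher, with a log2 fold change of 1.77 ± 0.45 (SE, edgeR, adjusted p = 0.0234). Row 1346 was called too, at 1.73 ± 0.45 (SE, edgeR, adjusted p = 0.0267), with 363 ± 765 CPM at the 4-cell stage and 62.04 ± 31.69 CPM at the 2-cell stage (SD, n = 12 and 14). These were 2 of 13 members tested, and 0.686% of the 5681 rows tested were called higher. No member was called lower, where 1.09% of rows were. The rule had averaged these stages together, so it did not use this difference. Both calls were lost without 4-cell C replicate a, a library of 10179 counts, with log2 fold changes of 1.27 (edgeR, adjusted p = 0.109) and 0.96 (edgeR, adjusted p = 0.245). Both were also lost in libraries of 20000 or more counts (1.35 and 0.95, edgeR, adjusted p = 0.0926 and 0.247) and with no filter (1.55 and 1.43, edgeR, adjusted p = 0.0677 and 0.0964). Row 911 lost its call without p4 replicate 1 (1.60, edgeR, adjusted p = 0.0512), and row 1346 without AB replicate 2 (1.59, edgeR, adjusted p = 0.0562). The 5 high libraries, AB replicate 2, P3 replicate a, C replicate a and the p4 libraries, all have sample numbers over 100. In the other titles P4 occurs only from the 5-cell stage on, so the stage of the p4 libraries is less sure than their titles say. With the 7 libraries of lower numbers alone, the log2 fold changes were 0.01 for row 911 and -0.19 for row 1346 (edgeR, adjusted p = 0.996 and 0.974).

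Later in cleavage both rows stood higher again. Row 911 had values of 40.7 to 236 CPM in the 11 libraries of the 5- and 6-cell stages (median 158.7). In 13- to 16-cell embryos it had 76.5 to 3261 CPM over 22 libraries (median 317), led by 13-cell AB3 with 3261, 16-cell AB replicate 2 with 2760 and 15-cell replicate 13 with 2338 CPM. In 12 of the 22 it exceeded every 5- and 6-cell library. Its log2 fold change was 1.91 ± 0.56 (SE, edgeR, adjusted p = 0.0355). Row 1346 rose by 1.93 ± 0.54 (SE, edgeR, adjusted p = 0.0312), to 844 ± 892 CPM at 13 to 16 cells, against 158.3 ± 93.69 CPM at 5 and 6 cells (SD, n = 22 and 11), and 14 of 22 libraries lay above every earlier one. These were 2 of 8 members tested, and 1.04% of the 289 rows tested were called higher. None was called lower, where 4.15% of rows were. Both rows passed the filter on low counts only through 13- to 16-cell libraries, where they were high. These calls and changes are therefore a description.

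These cleavage calls lay near the threshold. Row 1346 kept its call in 11 of the 26 alternatives that tested it and row 911 in 8 of the 14 that tested it. The filter removed row 911 in others, which include the 20000 minimum and leaving out 13-cell AB3, 16-cell AB replicate 2 or 15-cell replicate 13, its 3 highest libraries. The ranges of the log2 fold changes were 1.61 to 2.36 for row 1346 and 1.79 to 2.32 for row 911. Leaving out 13-cell AB3, the highest library, gave 1.61 for row 1346 (edgeR, adjusted p = 0.126), and 16-cell AB replicate 2 gave 1.68 (edgeR, adjusted p = 0.0659). Its call was also lost without 16-cell MS or unkn, without 13-cell AB, AB2, MS2, CDP4, MS or D4, and without 15-cell replicate 6 or 8 (1.74 to 1.86, edgeR, adjusted p of 0.0506 to 0.0995). Row 911 lost its call without 13-cell AB2, CDP4 or D4 or 15-cell replicate 8 (1.79 to 1.82, edgeR, adjusted p of 0.0666 to 0.0911).

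Row 911 was higher at the later titles by median. Its median was 331 CPM at E2, 1191 at E4, 1005 at E8, 3799 at VE, 1892 at Comma and 3074 at LE. The rule chose row 911 for such a difference, so the counts that follow are a description. Against the highest 1- to 3-cell library, at 185.9 CPM, all 16 Comma, all 8 VE and all 8 LE libraries were higher, as were 12 of 14 at E4. Within the E stages no difference of row 911 or row 1346 passed. For E8 against E2 row 911 stood at 2311 ± 2584 and 670 ± 661 CPM (SD, n = 11 each), a log2 fold change of 1.48 ± 0.61 (SE, edgeR, adjusted p = 0.142).

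**Figure D4:**
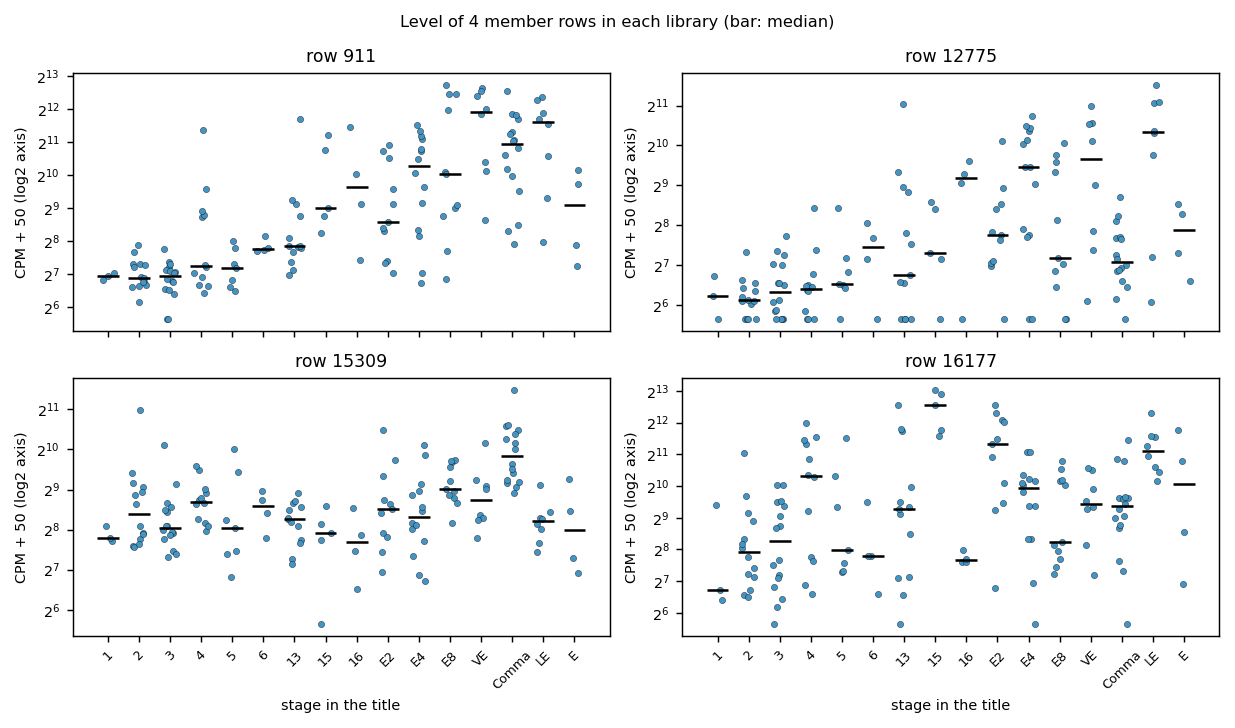
Level of rows 911, 12775, 15309 and 16177 in each library of 10000 or more counts, as CPM + 50 on a log2 axis, by stage in the title, with bars at medians. Row 12775 is high by median at E4, VE and LE, split at E8 and at 368 CPM or less in every Comma library, row 15309 is highest at Comma with a median of 861 CPM, and row 16177 peaks at the 15-cell stage and E2.

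Row 12775 differed between late titles. It was scarce early, with a median of 25.5 CPM over the 1- to 4-cell libraries and a highest value of 162.8 CPM at the 1- to 3-cell stages. Its median was 165.7 CPM at E2, 651 at E4, 95.9 at E8, 760 at VE, 86.1 at Comma and 1237 at LE. The E8 libraries were split, with 597 to 1026 CPM in replicate 1 of post_E, post_Abp, ant_Pharynx and ant_epithelia and 0 to 230 CPM in the other 7. In LE pieces it had 2877 CPM in ant_pharynx, 2108 in E6c, 2100 in 6cells, 1261 in 2c, 1212 in 3c2, 817 in 3c, 97.1 in ant and 16.9 in p4. In the 16 Comma pieces it had 0 to 368 CPM. All LE pieces but ant and p4, 6 of 8, thus lay above every Comma piece.

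The bin means of row 12775 were close, 8.23 at the E stages and 8.28 in the last bin, and its Comma pieces were low. It thus passed the rule through its VE and LE pieces, so the comparisons with Comma are given as a description. Its log2 fold change for LE against Comma was 3.45 ± 0.59 (SE, edgeR). For VE against Comma it was 2.71 ± 0.58 (SE, edgeR), with 839 ± 742 CPM in VE and 118.5 ± 96.8 CPM in Comma pieces (SD, n = 8 and 16). Of the VE pieces, 5 of 8 lay above every Comma piece. Both comparisons use the same Comma libraries. Over the 13 alternatives run for each, the log2 fold changes of row 12775 were 3.12 to 3.55 and 2.44 to 3.05. No other member was called higher in VE, where 2.02% of the 942 rows tested were, and none was called lower, where 1.06% were. The rule averaged these titles together, although a row high in 1 of them alone could pass it through that title.

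For LE against Comma, edgeR called 4 of 13 members tested higher and 1, row 15309, lower. Of the 942 rows tested, 8.39% were called higher and 3.72% lower. All 8 LE libraries carry replicate number 1 and each has its own piece name, so they may come from 1 embryo. The higher rows 12775, 1374, 6800 and 16177 had Comma medians of 86.1, 701.5, 283 and 608 CPM. Over the E stages their medians were 210, 821, 595 and 1019 CPM. They passed the rule through VE or LE pieces, and row 15309 through Comma pieces, so these counts and changes are a description. Row 1374 had 2197 ± 1537 CPM in LE and 757 ± 527 CPM in Comma pieces (SD, n = 8 and 16), a log2 fold change of 1.59 ± 0.41 (SE, edgeR). It lay above every Comma piece in 3 of 8 LE pieces, ant_pharynx, 6cells and E6c, and p4 lay below every Comma piece with 203 CPM. Row 6800 had a log2 fold change of 1.96 ± 0.58 and row 16177 of 1.84 ± 0.50 (SE, edgeR), both named after their values were seen. Row 6800 lost its call without LE ant_pharynx (1.63, edgeR, adjusted p = 0.0771), 6cells (1.79, edgeR, adjusted p = 0.0570) or E6c (1.82, edgeR, adjusted p = 0.0528). Row 16177 lost it without LE ant (1.46, edgeR, adjusted p = 0.0618) and with the Comma libraries of sample number under 110 alone (1.64, edgeR, adjusted p = 0.0691). With no filter on low counts rows 1374, 6800 and 16177 all lost their calls (edgeR, adjusted p = 0.110, 0.0799 and 0.0972).

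The 2 LE pieces low in the 9 rows were not low in every member. LE ant held 0.197% and p4 0.124% of counts in the 9 rows, against 0.934% to 2.64% in the other 6. Row 16177 had its highest LE value in ant, with 5014 CPM, and 1929 CPM in p4. Row 15309 had its highest LE value in p4, with 508 CPM. Their totals were 30911 and 59108 counts, and totals of the other 6 ran from 38058 to 100101.

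**Figure D5:**
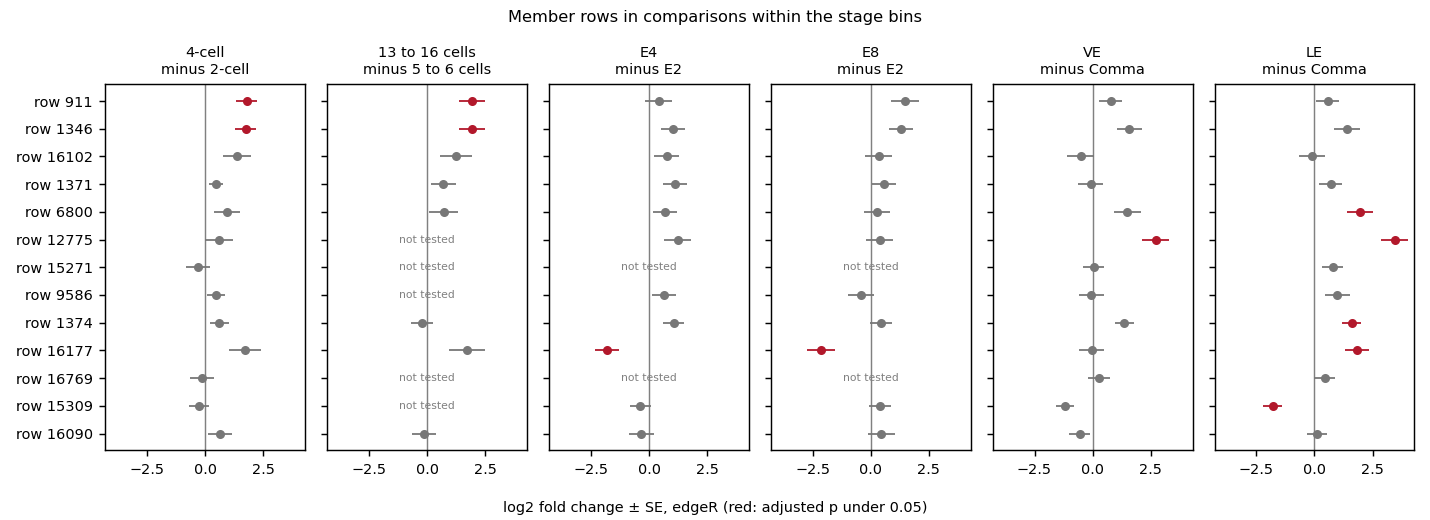
Log2 fold change with SE of each member in 6 comparisons within the stage bins, fitted by edgeR, with red points at an adjusted p under 0.05; rows removed by the filter on low counts are marked not tested. Rows 911 and 1346 are red in the cleavage panels, row 12775 lies at 2.71 and 3.45 in the VE and LE panels, row 16177 is lower at E4 and E8 than at E2, and row 15309 is lower at LE. Red points in the VE and LE panels are a description, because those rows passed the rule through the group that is high there.

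The other rows of the group of 9 differed in the stage at which they were highest. Row 16102 had medians of 13.2 CPM in 1-cell and 17.2 CPM in 2-cell embryos, 164.2 with 6 and 225 with 13 cells, then 318 at E2 and 1103 at E4. It passed the highest 1- to 3-cell value, 179.1 CPM, in 8 of 13 libraries at the 13-cell stage and in 12 of 14 at E4. Row 1371 had medians of 356 CPM at E2, 1430 at E4, 251 at E8, 821 at VE, 566 at Comma and 1580 at LE. Row 6800 followed the same course, with 293, 982, 159.8, 1133, 283 and 1590 CPM over the same titles. Row 9586 stayed below 600 CPM in every stage median, and row 15271 below 300 CPM. Row 1374 was the only one of the 9 already high in the egg, with medians of 345 CPM in 1-cell, 456 in 2-cell and 408 in 3-cell embryos.

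No difference between E4 and E2 passed the test in these 9 rows. For E4 against E2 the log2 fold change was positive in 8 of 11 members tested, with a median of 0.68 against 0.03 over all 291 rows tested. The largest were row 12775 at 1.23 ± 0.57 and row 1371 at 1.12 ± 0.50 (SE, edgeR, adjusted p = 0.0877 and 0.0788). No member was called higher, where 8.25% of rows were. The number called depended on E2 AB replicate 2, the 1 deep E2 library with 140062 counts and 1.16% of counts in the 9 rows. Without it 5 members were called higher and 1 lower (edgeR). The share of all rows called in that fit is not given here, so these counts are not read as a result about the members.

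Row 16177 followed another course and was the one member called lower within the E stages, where rows 16769 and 15271 were not tested. Its medians were 54.2, 192.7, 257 and 1224 CPM from the 1-cell to the 4-cell stage, 203 and 173.1 CPM at 5 and 6 cells and 563 CPM at 13 cells. In the 5 libraries of the 15-cell stage it had 7697, 6024, 3018, 8366 and 3426 CPM, all above its highest 1- to 3-cell value of 2058 CPM. At the 16-cell stage the median was 152.5 CPM. At E2 it had 59.3 to 5962 CPM (median 2537, 11 libraries), at E4 0 to 2126 CPM (median 923, 14 libraries) and at E8 100.2 to 1715 CPM (median 251, 11 libraries).

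No E8 library of row 16177 reached the E2 median. Its log2 fold change was -2.15 ± 0.59 for E8 against E2 (SE, edgeR, adjusted p = 0.0138) and -1.81 ± 0.54 for E4 against E2 (SE, edgeR, adjusted p = 0.0293). Both comparisons use the same E2 libraries. At E8, 1 of 11 members tested was called lower and none higher, and 6.87% and 0.344% of the 291 rows tested were. At E4 it was again 1 of 11 lower, with 16.2% of rows lower. The E8 call held without any single E2 library, but was lost in libraries of 20000 or more counts (-2.01, edgeR, adjusted p = 0.0616) and with no filter on low counts (-1.60, edgeR, adjusted p = 0.318). The E4 call was lost without any 1 of E2 replicate 2, E2MB replicate 2, numbered replicates 1, 2, 3, 5 and 6 or r replicates 2 and 5 (-1.70 to -1.40, edgeR, adjusted p of 0.0637 to 0.0986). It was also lost with RLE scaling (-1.28, edgeR, adjusted p = 0.0944) and with no filter (-1.19, edgeR, adjusted p = 0.395).

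Row 15309 was highest at Comma. Its stage medians ran between 156.1 and 465.6 CPM from the 1-cell stage to E8, were 375 CPM at VE and 245 CPM at LE, and reached 861 CPM at Comma. The LE pieces had a median of 245 CPM and a highest value of 508 CPM, the Comma pieces had 433 to 2825 CPM, and 7 of 8 LE pieces lay below every Comma piece. Row 15309 was highest in the last bin through its Comma libraries, so the comparison with Comma bears on the group by which it passed the rule and is given as a description. The log2 fold change for LE against Comma was -1.79 ± 0.40 and for VE against Comma -1.21 ± 0.39 (SE, edgeR). In all, the 45 libraries of the first bin held 353 ± 313 CPM of this row (SD), so it was present from the egg on. The Comma libraries make up 16 of the 32 of the last bin.

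Row 16769 was lowest in the 5- to 16-cell bin and row 16090 differed little by median between the later bins. Row 16769 had bin medians of 154.8, 93.4, 208 and 278 CPM from the first bin to the last. Its stage medians were 295 CPM at the 1-cell stage, 87.4, 82.8, 124.1, 54.4 and 204.8 CPM with 5, 6, 13, 15 and 16 cells, 227 at E2, 128.3 at E4, 294 at E8, 261 at VE, 291 at Comma and 299 at LE. It was called in none of the 6 comparisons that tested it, and the filter on low counts removed it from those between E8 and E2, E4 and E2, and 13 to 16 and 5 to 6 cells. Row 16090 had bin medians of 4950, 9350, 9119 and 9088 CPM. Over all libraries its level fell with depth, with a Pearson r of -0.700 to the log2 total, and -0.695 within stages. In libraries under 50000 counts its bin medians were 10260, 15250, 13937 and 15476 CPM, and in those over 50000 they were 2196, 2314, 3863 and 7375 CPM. In 12 libraries it had 900 or more counts, up to 1023, close to 1024, the highest value in the table, at which 22 values stood. No other member passed 876 counts. Row 16090 was tested in every comparison and called in none.

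Position along the embryo was compared within 3 titles, which the rule had averaged over. In Comma pieces, anterior (6 libraries) against posterior (5) called 0 of 12 members tested, and middle (5) against both ends (11) called 0 of 12. Of the 703 rows tested, 0% were called in either comparison by edgeR, with 55 and 80 rows and 3 and 2 members at an unadjusted p under 0.05, and DESeq2 called 0 members in both. The smallest p belonged to row 16090 for anterior against posterior, at 7659 ± 5759 and 20373 ± 10510 CPM (SD, n = 6 and 5), a log2 fold change of -1.33 ± 0.55 (SE, edgeR, adjusted p = 0.576). For middle against ends it was row 16177, with 1330 ± 918 and 522 ± 468 CPM (SD, n = 5 and 11), at 1.62 ± 0.64 (SE, edgeR, adjusted p = 0.314).

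At E8, anterior pieces (5) against posterior pieces (6) called 0 of 7 members, and 0% of 202 rows. Row 15309 had the smallest p, with 402.8 ± 116.6 and 649 ± 183.1 CPM (SD, n = 5 and 6) and a log2 fold change of -0.53 ± 0.33 (SE, edgeR, adjusted p = 0.905). In VE, ant_pharynx (4) against middle (3) called 0 of 13 members, and 0% of 1555 rows. Row 16769 had the smallest p, at -1.23 ± 0.82 (SE, edgeR, adjusted p = 0.870), and its VE middle values were 162.5, 233 and 1638 CPM. At an unadjusted p under 0.05 there were 12 and 71 rows and 0 and 0 members, and DESeq2 called 0 members in both. For row 911 the log2 fold change was 0.54 ± 1.00 at E8 and 0.02 ± 0.88 at VE (SE), so differences of several fold between these pieces could not be seen at this spread.

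The 48 libraries that had no part in the choice of the 13 members give a partial check of levels. The 4 of them titled E with 10000 or more counts did enter the correlations by which the 9 rows were grouped. For the share of the 9 rows these 4 are therefore not independent, and they are also among the 9 libraries titled E below. In the 4 libraries titled E with 10000 or more counts, the 9 rows held 0.265%, 0.297%, 0.365% and 0.832% of counts, all above the highest 1- to 3-cell library. In the 9 libraries titled E with 3000 or more counts the share was 0.105% to 0.832% (median 0.297%). In 25 libraries of 1- to 16-cell embryos with 3000 to 10000 counts it was 0.0229% to 1.20% (median 0.131%), and in the 15 of these from stages other than 15 cells it was 0.0229% to 0.272% (median 0.112%). The 10 libraries of the 15-cell stage held a median of 0.361%, above that of the libraries titled E.

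The filter on low counts left 59 rows for the libraries titled E (9) against the cleavage libraries (25). Of the members 2, rows 16177 and 16090, were tested. The arms differed in depth, with totals of 4151 to 127647 counts in libraries titled E and 4296 to 9961 in cleavage libraries. The part of depth in this comparison was not tested. Neither was called by edgeR, where 10.2% of rows were called higher and 0% lower, and 1 member had an unadjusted p under 0.05. Row 16177 had 1645 ± 1402 CPM in libraries titled E and 5080 ± 3871 CPM in cleavage libraries (SD, n = 9 and 25), a log2 fold change of -1.19 ± 0.55 (SE, edgeR, adjusted p = 0.115), against the direction of the rule. Of these cleavage libraries 10 were of the 15-cell stage, where row 16177 had its highest stage median. DESeq2 called it lower, at -1.41 (adjusted p = 0.0256). With no filter all 13 members were tested and rows 1374, 9586 and 16102 were called higher, at 2.37, 2.09 and 2.11 (edgeR, adjusted p = 0.0200, 0.0199 and 0.0235). Rows 16177 and 16090 stood at -1.40 and -0.75 in that fit. The share of all rows called in it is not given here, so these calls are not read as a result about the members.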

How the data were processed

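The authors deposited whole-number counts per row for 194 CEL-Seq2 libraries; CASAVA 1.8, Bowtie2 2.1.0 and HTSeq 0.5.4p3 are named per the submitters' processing notes. Not given in the sources used here are their settings, the reference build and any collapse of molecular identifiers. If identifiers were collapsed, values near 1024 would be compressed. Each column's number was matched to the number that ends a sample's description. Spaces inside a title's stage name were removed.

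CPM used each column's total. Comparisons used edgeR 4.0.16 (R 4.3.3, limma 3.58.1): quasi-likelihood test, TMM, filterByExpr (minimum count 10, minimum total 15), robust dispersions, and Benjamini-Hochberg adjustment over all rows tested, called at an adjusted p under 0.05. Stages of a bin shared 1 fit. DESeq2 1.42.0, other scaling, no filter, other library minimums, a replicate block and leaving out libraries were alternatives. The fit was tested on simulated data.

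The members and lists were chosen with earlier results of these data known. Named are the 4 members of largest span, those next to the thresholds, up to 2 called members per direction and comparison detected in over 50% of the higher group's libraries, or else the member of smallest p. No embryo is named for any library, so replicates may share embryos. Intervals from counts cover counting error only.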

Additional observations from a re-analysis of the deposited data

Results flagged for a closer look

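Of 89 groups or stages of 4 to 10 libraries examined, 8 held a library whose distance from its nearest neighbour was large for the range, by Dixon's criterion at 95%. Chance flags about 1 group in 20. For the share of counts in the 9 co-varying rows these were 2-cell P1 replicate 2, with 0.204%, and Comma posterior replicate 2, with 1.19%. At the 16-cell stage AB replicate 2 was far above the others in row 1374, with 2963 CPM. AB replicate 1 of that stage had 0 counts of row 12775 and 0 of row 16102, each of which allows up to 62.3 CPM in its 48167 counts. At the 15-cell stage replicate 12 had 0 counts of row 15309, which allows up to 279 CPM in 10758 counts. Row 16769 stood apart in LE 2c, with 1366 CPM, and in VE middle replicate 3, with 1638 CPM.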

How the results depend on the processing

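The choice of members depended on the scale. The rule took 0.0771% of all rows as run, 0.7358% at log2(CPM + 10), 0.0415% at log2(CPM + 200), 0.1958% with stages weighted equally, 0.1365% with TMM-scaled CPM, 0.0593% at a minimum of 20000 counts, 0.2017% at a minimum of 50000, 0.1009% in libraries under 50000, 0.0949% without the E2 titles that hold a space and 0.1365% with libraries thinned to 10000 counts; the minimum of 50000, the libraries under 50000 and the thinning were chosen after seeing the data. Of the 13 members the 9 alternatives held, in that order, 13, 7, 12, 11, 5, 3, 7, 9 and 11, and row 1346 was in all 9. The E8 median share of the 9 rows was 1.28% in libraries of 20000 or more counts. For members called, E8 against E2 gave 0 with no filter and 0 at the 20000 minimum. E4 against E2 gave 0 with RLE scaling and with no filter, and 0 to 6 leaving out an E2 library. The 13- to 16-cell comparison gave 0 with RLE scaling, with no filter, at the 20000 minimum and without the 13-, 15- or 16-cell libraries, and 0 to 2 leaving out a library. A member removed by the filter counts as not called in these numbers. The 4-cell comparison gave 0 with no filter, at the 20000 minimum, with the replicate block and with 4-cell sample numbers under 100, and 0 to 2 leaving out a library; row 1346 reversed to -0.19 with those numbers. VE against Comma gave 3 by DESeq2, 2 with RLE scaling and 1 to 2 leaving out a VE library, and LE against Comma gave 1 with no filter. The comparison of unused libraries gave 1 by DESeq2, 1 with RLE scaling and 3 with no filter. Row 16769 reversed to 0.39 between VE pieces at the 20000 minimum, and leaving out a library gave -1.74 to 0.39. The cause of these changes was not tested. The replicate block called 0 members in Comma, E8 and VE pieces. Same-numbered libraries correlated at -0.42 to 0.31 in Comma, 0.04 to 0.65 in E8, 0.09 to 0.36 in VE and -0.28 to 0.55 in 1- to 4-cell libraries, and with the lowest value in each under 0.1 the numbers were not taken as pairs. At E8 and VE all same-numbered pairs were positive, with medians of 0.338 and 0.237 against -0.239 and -0.158 for other pairs. These r use deviations from the mean of a piece title, which are exact opposites where a title has 2 libraries. E8 post_E replicate 1 thus had r of 0.551 with ant_Pharynx replicate 1 and -0.551 with replicate 2. Part of the contrast, and of the best matches at E8, was therefore fixed in advance. In the 4-cell comparison the block gave log2 fold changes of 0.83 for row 911 and 0.73 for row 1346 (edgeR, adjusted p = 0.790 and 0.797). A library correlated best with its own number in 5 of 16, 8 of 10, 5 of 6 and 11 of 38 cases.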
